A study of Drosophila melanogaster with 6 samples.

Results

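The intervals described here are the 729 regions with the strongest ATAC-seq signal in every library of a wing imaginal disc series. They were selected on fold enrichment, the height of a peak over the local background of its own library: peaks of the 6 lists that overlapped were merged, and an interval was kept when every list held a peak in it at or above percentile 95 of that list's fold enrichments. Merging gave 45905 intervals. A peak from all 6 lists was present in 19441 of them, which are called constitutive below, and the 729 strongest intervals are set against the other 18712.

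ATAC-seq maps open chromatin by the insertion of Tn5 transposase into DNA that is not wrapped in nucleosomes or otherwise covered. In flies, lasting open regions are typically promoters, where the transcription machinery and proteins such as GAGA factor keep nucleosomes away, and enhancers bound by tissue-specific transcription factors. The wing disc is the larval epithelial sac that gives rise to the adult wing, hinge and notum.

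Discs came from Drosophila melanogaster larvae of 3 genotypes with 2 libraries each. All carried the ubiquitous tub-Gal4 driver with the temperature-sensitive repressor tub-Gal80ts, and they differed in the transgene driven: GFP as the control, RNAi against Cdk1 (Cdk1-i), for which the study's methods describe a pair of UAS lines used together, or fzr, which encodes the Fizzy-related activator of the anaphase-promoting complex. Larvae grew at 17 °C for 7 days and were moved to 31 °C for 2 days before dissection. Each library was a pool of whole discs, so the values are averages over the cell types of the disc. The driver is ubiquitous, but transgene activity in each cell type was not measured here. A smaller share of cells with an open region and a weaker opening per cell cannot be told apart. Genotype names here are those of the sample labels. In 4 lists the deposited name carries fzr where the label says Cdk1-i, or the reverse. If the names of the lists are right, Cdk1-i and fzr change places in every statement below. Which is right was not tested.

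The lists held 27119 to 36715 peaks, and percentile 95 corresponded to a fold enrichment between 8.33 and 13.2. Replicate 2 of fzr stood apart: it had the fewest peaks. Over the constitutive intervals its log2 fold enrichments correlated with those of the other libraries at 0.740 to 0.855. Among the other 5 the range was 0.827 to 0.941. The Cdk1-i replicates correlated with each other at 0.941, the fzr replicates at 0.854 and the control replicates at 0.846. Control replicate 2 correlated at 0.858 with Cdk1-i replicate 2 and with fzr replicate 1, above its value with control replicate 1. Without fzr replicate 2, the rule gave 952 intervals, of which 51.3% lay at gene starts against 10.9% of the others. Their median width was 597 bp against 504 bp. Their median distance to the nearest of their kind was 36083 bp, against 50332.5 bp from the others. Among markers of disc epithelium, 9 of 12 had a constitutive interval at a transcript start, and 2 of these, at nub and ct, were among the strongest. Of the markers of other tissues, 1 of 6 for myoblasts and 1 of 2 for trachea had a constitutive interval at a start. None of 5 for haemocytes, 4 for fat body, 4 for neurons and 3 for the germ line did. Of all protein-coding genes, 2.57% had a strongest and 14.6% another constitutive interval at a start. Lists this small cannot show that a tissue was absent.

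Sequences at 6 of the strongest intervals are printed because they hold the motifs whose shares are compared below. Each is the 121 bp around the median summit in dm6 that is free of annotated exons, on the strand of the named gene. Capitals mark GAGAGAG (bound by the protein that Trl encodes, GAGA factor), AACCGGTT (Grainyhead) or TATCGATA (DREF), each searched on both strands, so that CTCTCTC is the first motif on the opposite strand. For each motif the intervals were taken in order of fold among those with a match inside these 121 bp and no exon base there, and 1 chromosome arm was left out, so stronger intervals with a match exist that are not shown.
abd-A start, chr3R:16830156-16830276, minus strand: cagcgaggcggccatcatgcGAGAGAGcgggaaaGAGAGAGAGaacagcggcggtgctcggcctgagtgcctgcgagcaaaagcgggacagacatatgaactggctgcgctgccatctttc
abd-A intron, chr3R:16811971-16812091, minus strand: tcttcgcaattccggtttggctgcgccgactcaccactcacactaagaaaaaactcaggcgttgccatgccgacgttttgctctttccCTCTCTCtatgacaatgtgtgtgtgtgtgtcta
eyg start, chr3L:12468096-12468216, minus strand: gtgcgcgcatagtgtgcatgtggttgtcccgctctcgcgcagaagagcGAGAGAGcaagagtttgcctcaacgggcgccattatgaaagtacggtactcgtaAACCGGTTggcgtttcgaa
Sdr upstream, chr3R:14917704-14917824, plus strand: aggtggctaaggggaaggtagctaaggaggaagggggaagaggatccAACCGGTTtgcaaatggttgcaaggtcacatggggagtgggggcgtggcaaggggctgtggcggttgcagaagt
Hayan start, chrX:18483826-18483946, minus strand: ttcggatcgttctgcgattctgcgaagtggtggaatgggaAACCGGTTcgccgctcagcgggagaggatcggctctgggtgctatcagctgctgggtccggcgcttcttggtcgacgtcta
woc intron, chr3R:27263486-27263606, minus strand: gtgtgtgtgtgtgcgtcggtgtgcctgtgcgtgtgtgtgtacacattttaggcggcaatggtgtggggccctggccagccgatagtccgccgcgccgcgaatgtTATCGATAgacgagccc
The eyg window held both a GAGA and a Grainyhead match. A match describes letters and does not show that the factor was bound.

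The median fold enrichment of the strongest intervals was 13.8 and 12.4 for control, 17.7 and 17.1 for Cdk1-i, and 18.2 and 10.8 for fzr. The other constitutive intervals had medians from 3.44 to 5.20, so the strongest stood 3.04 to 3.65 times higher within each library, as the rule requires. Within an interval, the unscaled fold of the highest library exceeded that of the lowest by a median of 1.76 times, and by over 2 times in 185 of the 729. These ratios include the differences between whole libraries, whose medians ran from 10.8 to 18.2. Replicate 2 of fzr gave the lowest fold at 563 intervals, and replicate 1 of fzr the highest at 373. The fzr replicates thus lay at opposite ends of the range. The fold was near the limit for many: 192 intervals had their lowest percentile under 96, whereas 79 were at or above percentile 99 in all 6 lists.

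**Figure D1:**
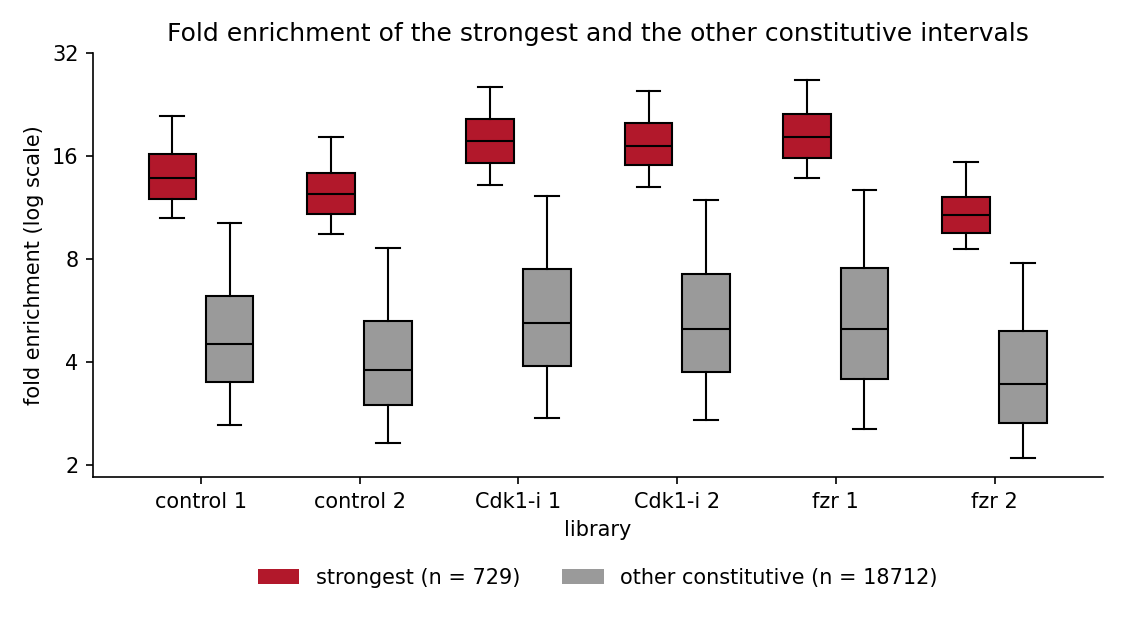
Fold enrichment (log scale) of the 729 strongest intervals and the 18712 other constitutive intervals in each library; boxes span the quartiles, lines the medians and whiskers percentiles 5 and 95. The strongest intervals, which were chosen on these values, have medians from 10.8 in fzr replicate 2 to 18.2 in fzr replicate 1.

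Just inside the limit lay an interval 287 bp from a start of thw, at percentile 95.0035 in fzr replicate 2, an interval at the start of Doc2, at 95.0078 in Cdk1-i replicate 1, and an interval at the start of kn, at 95.0172 in fzr replicate 1. Just outside lay intervals in an intron of cact (94.9888), at the start of Zip89B (94.9857) and in an intron of Pvf2 (94.9851). Each list was also set against the choice made by the other 5. The intervals that reach the limit in all lists are the same 729 each time. The shares therefore show only how many fell short in 1 list and are no separate support. Of the intervals at or above percentile 95 in 5 lists, the share that also reached it in the list held out was 98.2% for control replicate 2, 98.4% and 99.5% for the Cdk1-i replicates and 96.2% for fzr replicate 1. It was 87.0% for control replicate 1 and 76.5% for fzr replicate 2, in which 16 of 953 had no peak.

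Of the 10 strongest intervals by geometric mean fold, 8 lay at gene starts. An interval on an unplaced scaffold led, with 27.2 and 25.6 in control, 33.7 and 32.8 in Cdk1-i, and 34.1 and 33.2 in fzr. It was the only one of the 10 in which fzr replicate 2 was not the lowest library. The next lay 153 bp from the start of snoRNA:Psi18S-176, named as a guide of pseudouridylation in 18S ribosomal RNA, with 24.2 and 24.9 in control, 35.3 and 33.4 in Cdk1-i, and 33.1 and 24.0 in fzr. At Cht2, which encodes a chitinase, the fold was 27.5 and 20.9 in control, 34.1 and 31.7 in Cdk1-i, and 33.9 and 20.2 in fzr. In both, the unscaled fold of the Cdk1-i libraries lay above that of the control libraries, and the fzr libraries overlapped the control. The library medians of the strongest and of the other constitutive intervals had the same order of Cdk1-i and control. Without scaling, the median log2 difference for Cdk1-i against control was 0.30 over all constitutive intervals, so this order is not particular to them.

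The interval at lncRNA:CR45939 was also within 250 bp of a start of ftz-f1, a nuclear receptor of the ecdysone response, and had 23.8 and 20.7 in control, 35.5 and 32.6 in Cdk1-i, and 35.7 and 19.7 in fzr. At pb, the Hox gene of the mouthparts, the values were 22.6 and 20.4, 29.3 and 27.7, and 32.3 and 18.0 in the same order. At abd-A, the Hox gene of abdominal segments, they were 18.3 and 15.9, 34.5 and 36.03, and 35.6 and 14.8, with fzr replicate 2 below both control libraries and fzr replicate 1 between the Cdk1-i libraries. The abd-A interval spans chr3R:16830042-16830392 and holds the first sequence printed above. The others of the 10 were at Spn27A and Spn28Dc, both of the serpin family of protease inhibitors, at lncRNA:CR45267, and 304 bp from a start of fkh, the Forkhead transcription factor of the salivary gland, with geometric means from 22.7 to 24.4.

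**Figure D2:**
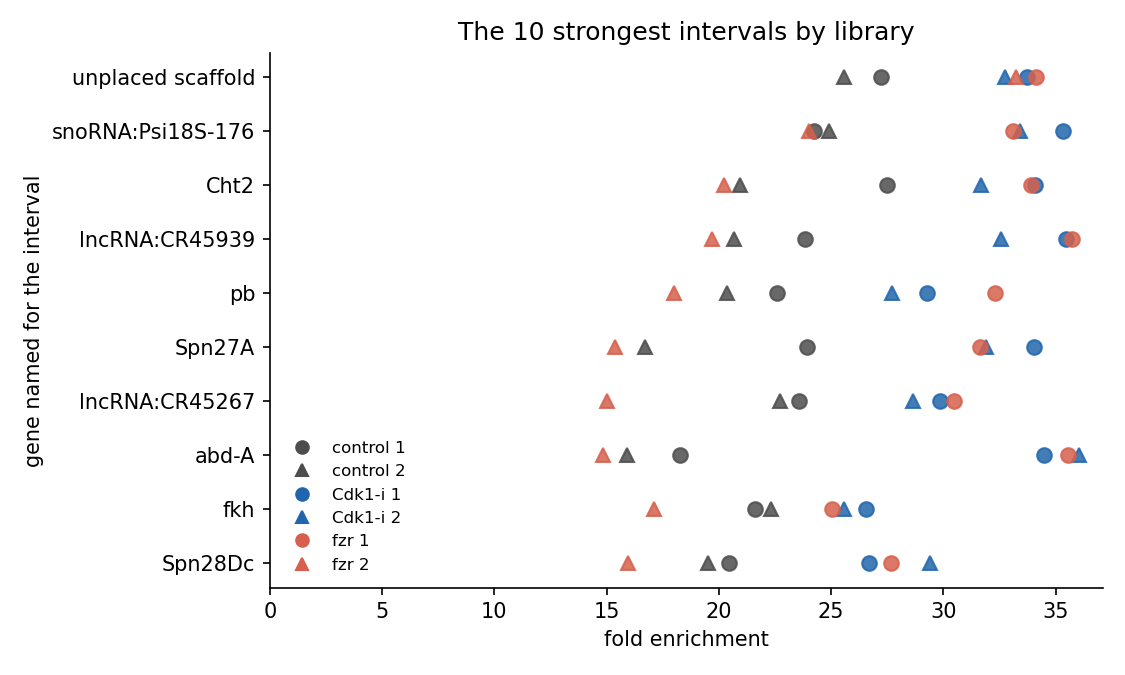
Fold enrichment of the 10 strongest intervals, one row each, in the 6 libraries (circles replicate 1, triangles replicate 2; grey control, blue Cdk1-i, red fzr). In 9 of the 10, fzr replicate 2 is the lowest library; at abd-A it has 14.8 and fzr replicate 1 has 35.6.

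The strongest intervals were concentrated at gene starts. The median summit lay within 250 bp of an annotated transcript start in 367 of 729 (50.3%; 95% Wilson interval 46.7 to 54.0%), against 2189 of 18712 other constitutive intervals (11.7%) and 7.33% of the genome. The remainder were mostly in introns (33.3% against 53.1%) and between genes (15.5% against 34.4%). The share at starts was higher on each of 2L, 2R, 3L, 3R, 4 and X, 41.4 to 55.6% against 7.77 to 14.1%. It also rose with fold enrichment among the other constitutive intervals, from 2.60% in the lowest of 5 bins to 32.4% in the highest, so the strongest intervals stood at the upper end of a gradient. Of the 100 strongest, 65 were at starts.

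**Figure D3:**
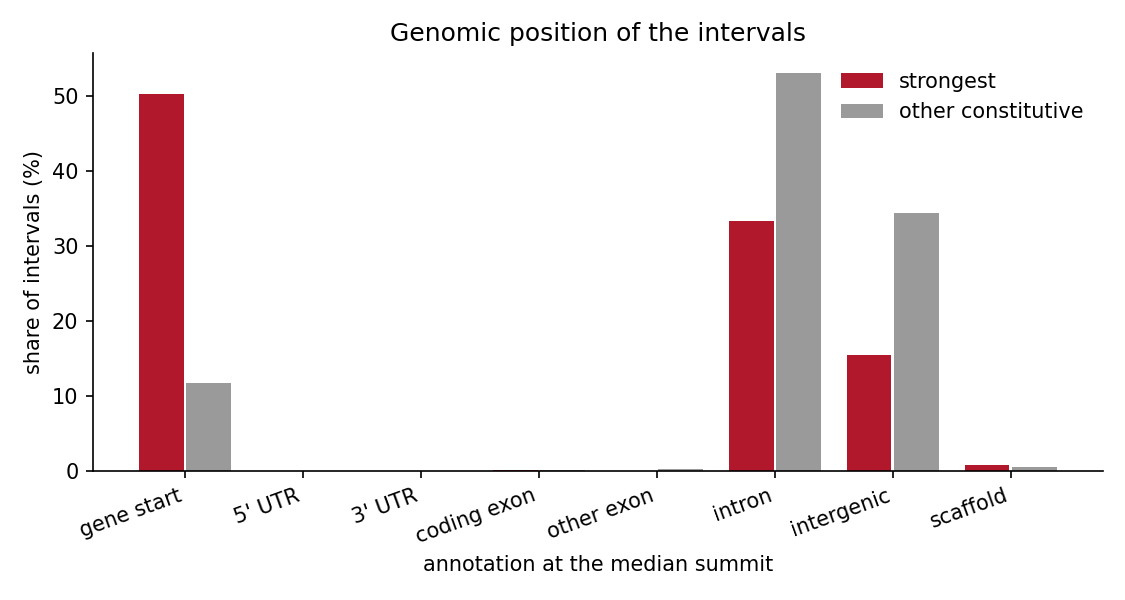
Share of the strongest and of the other constitutive intervals in each annotation class at the median summit, in percent. Gene starts hold 50.3% of the strongest and 11.7% of the others, and exon classes are nearly empty in both.

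Away from starts, the strongest intervals lay near a start more often than the others did. Among the 356 in introns or between genes, 50.3% were within 1000 bp of a start, against 16.8% of the others, and 8.15% were over 10 kb from any start, against 18.8%. A pair of divergent genes with starts within 1000 bp flanked 24.5% of the strongest intervals at starts and 23.0% of the others there. The gene at the start was protein coding in 90.5% and 92.6%.

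Summits at gene starts lay upstream. The median position was 91 bp upstream for the strongest and 83 bp for the others, and 354 of 367 (96.5%) were upstream of the start, against 90.3%. Few summits lay beyond an edge 10 bp into the transcribed side. Each 20 bp bin there held at most 0.545% of the strongest intervals at starts and 1.05% of the others. This edge belongs to the lists as a whole: of all summits, 0.726 to 1.27% per library were in annotated exons, which make up 26.2% of the genome, and 0.150 to 0.421% were in coding exons, which make up 16.6%. Peaks covered 7.79 to 8.55% of the bases within 50 bp outside an exon edge, 4.396 to 5.03% of those within 50 bp inside, and 0.0769 to 0.230% of those 100 to 200 bp inside. The cause was not tested. Positions and shares at starts therefore describe peaks in lists that scarcely enter exons, and 85.6% of annotated genes had no constitutive interval at a start.

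**Figure D4:**
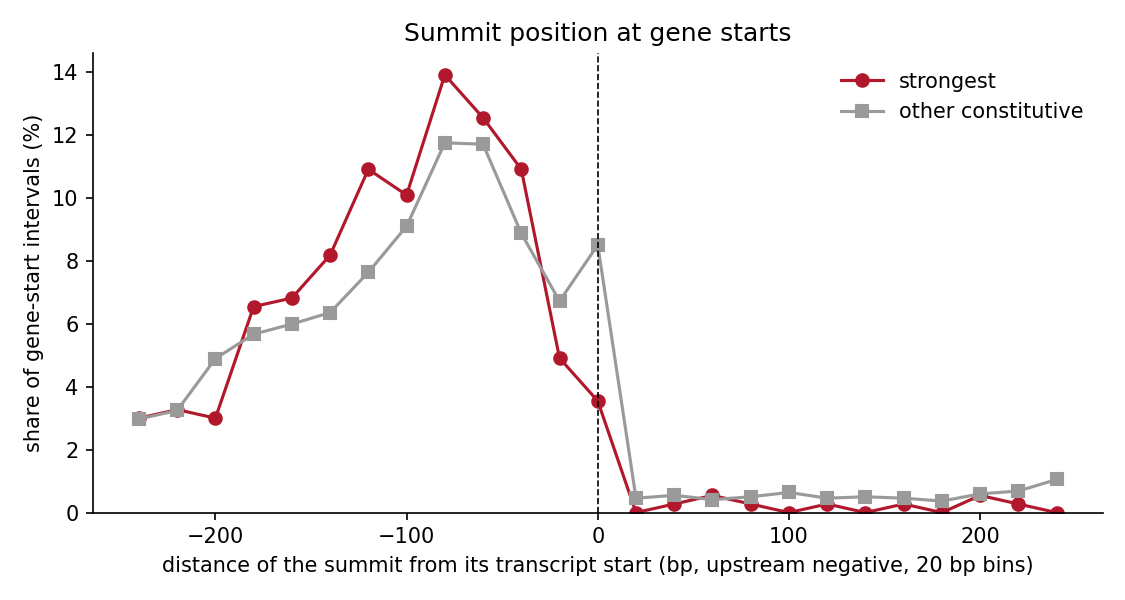
Share of gene-start intervals by distance of the median summit from the transcript start, in bins of 20 bp (upstream negative), for 367 strongest and 2189 other constitutive intervals. Both curves peak between 90 and 50 bp upstream and drop near the start. Beyond 10 bp downstream, each bin holds at most 0.545% of the strongest and 1.05% of the others.

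Width and summit placement followed fold enrichment over the 5 bins of the other constitutive intervals. Within the strongest, width did not rise with fold. In 4 groups of these, from highest to lowest fold, the median width was 664, 631.5, 840 and 783 bp. Merged width had a median of 715 bp in the strongest against 614 bp in the others, but 702.5 bp in the highest of the 5 bins of the others. The summits of the 6 lists spanned a median of 53 bp in the strongest, 114 bp in the others and 64 bp in that bin. The difference was larger away from starts, 874 against 626 bp, than at starts, 570 against 509 bp. Widths ranged widely: the widest was 2740 bp at CG33523, followed by 2524 bp at CG9795, 2430 bp nearest to Br140, which encodes a bromodomain protein, 2399 bp on a scaffold and 2240 bp in Tsp39D, a tetraspanin gene. Their ranks by fold ran from 87 to 716. Summits of the 6 lists fell within 50 bp of each other in 48.7% of the strongest and 20.5% of the others, and within starts in 59.4% and 41.5%. Width and summit position come from the peaks that were ranked and are not independent of the rule.

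Most strongest intervals stood alone. The median distance to the nearest other strongest interval was 45470.5 bp, against 64776.5 bp from the other constitutive intervals. Of the strongest, 11.7% had another within 10 kb, against 8.22% of the others. Split by position, the medians were 50153 and 52604 bp at gene starts and 38895.5 and 66406 bp elsewhere. Linking neighbours no more than 10 kb apart left 644 single intervals, 41 pairs and 1 run of 3, at CG12581 and CR33294 on chr3R:4174289-4187703. Other constitutive intervals were sparser around them: the nearest of any kind was a median of 4521 bp away, against 2037 bp for the others.

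The gene nearest to or containing each interval was recorded for 724 intervals, giving 692 genes, of which 30 had 2 or more. Abd-B, the Hox gene of the posterior abdomen, and tai, a coactivator of the ecdysone receptor, had 3 each. The span of the bithorax complex held 9 strongest intervals, 22.0% of its 41 constitutive intervals, and that of the Antennapedia complex 8, 11.3% of its 71, against 3.75% overall. Of the 8 Hox genes, a list added after the intervals had been seen, 5 had a strongest interval at a start (abd-A, Abd-B, Dfd, lab and pb) and the other 3 had another constitutive interval. At Dfd the fold was 17.9 and 17.5 in control, 22.4 and 22.9 in Cdk1-i, and 23.0 and 12.1 in fzr. At lab it was 11.6 and 12.7, 16.1 and 15.3, and 17.0 and 9.44 in the same order.

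Transcription factors that pattern the wing disc were the list with most genes among the strongest. Of 48, 14 (29.2%) had a strongest interval at a start, 23 another constitutive interval and 11 neither, whereas 2.57% of all protein-coding genes had a strongest and 14.6% another. At eyg, a Pax gene of the notum, the fold was 20.1 and 18.5 in control, 28.6 and 26.3 in Cdk1-i, and 25.7 and 13.9 in fzr. At sc, the proneural gene scute, it was 12.9 and 18.9, 24.1 and 24.2, and 27.7 and 14.2. At nub, a POU gene of the wing pouch and hinge, it was 10.6 and 13.1, 20.6 and 20.2, and 20.7 and 11.9. In each of these, both Cdk1-i libraries were above both control libraries, as was also true of the library medians given above. The others were tio and tsh, which encode related zinc finger proteins, dac, odd, tup, Lim1, esg, grn, ct, Doc1 and Doc2, with geometric means from 11.5 to 19.4.

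Genes of the signalling pathways had 4 of 55 (wg, the Wnt ligand; sgg, the GSK3 kinase that restrains Wingless signalling; rho, which activates EGFR ligands; and pnt, an Ets factor of EGFR signalling). At wg the fold was 10.5 and 11.6 in control, 17.8 and 16.3 in Cdk1-i, and 17.9 and 11.3 in fzr. Ecdysone response genes had 3 of 19 (ftz-f1, Eip74EF and Hr3). Cell cycle and replication genes had 3 of 40: the mitotic cyclins CycB and CycB3 and Dp, the E2F partner. At CycB3 the fold was 21.3 and 10.7 in control, 24.9 and 20.9 in Cdk1-i, and 25.7 and 10.4 in fzr. The control replicates and the fzr replicates each differed by more than 10 in fold, and both Cdk1-i replicates lay between the fzr replicates. CycB had 11.7 and 8.90, 13.9 and 14.5, and 13.7 and 8.55.

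Among genes used by all cells, a strongest interval was at the start of 1 of 22 translation factors (eIF3a), 1 of 27 cytoskeleton and housekeeping genes (sesB, the ADP/ATP translocase) and 1 of 40 chromatin genes (zld, the Zelda activator of the early embryo). Heat shock and chaperone genes had 2 of 26, Hsp23 and Hsc70-3. None was found among 26 Hippo and growth genes, 33 apoptosis and DNA damage genes or 115 histone genes. Another constitutive interval was at a start of 10, 10 and 1 of these. Of 186 odorant, gustatory and ionotropic receptor genes only Or67a had a strongest interval, and none of 26 testis-specific or 27 digestive protease genes did. The share among all protein-coding genes was 2.57%. Lists of 22 to 40 genes are too small to tell 1 or none from that share, so they show no depletion. Of the histone genes 114 of 115, and of the receptor genes 184 of 186, had no constitutive interval of any kind at a start. Their low counts are therefore not particular to the strongest intervals, and the cause was not tested. Counts at starts moved with nearby exons. A strongest interval was found at 3.15% of protein-coding genes with no exon in the 250 bp upstream of at least 1 start, and at 1.14% of those with an exon there at every start. Any constitutive interval was found at 20.6% and 8.61% of the same genes, so the contrast was shared by all constitutive intervals. The part of exons in the list counts was not tested.

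GAGAGAG was the motif whose share differed most in percentage points. It was present in the 301 bp around the summit of 166 of 724 strongest intervals (22.9%; 95% Wilson interval 20.01 to 26.1%) and of 8.83% of 18625 others. The shares were 25.3% and 18.2% at gene starts and 20.2% and 7.58% in introns and between genes. On 2L, 2R, 3L and 3R the share was 21.4 to 24.1% in the strongest and 7.56 to 8.91% in the others, and on X it was 23 of 92 and 12.5%. Among the others it was 4.82% in the lowest bin of fold and 17.8% in the highest. In the abd-A start window printed above the motif occurs in a pair of tracts.

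**Figure D5:**
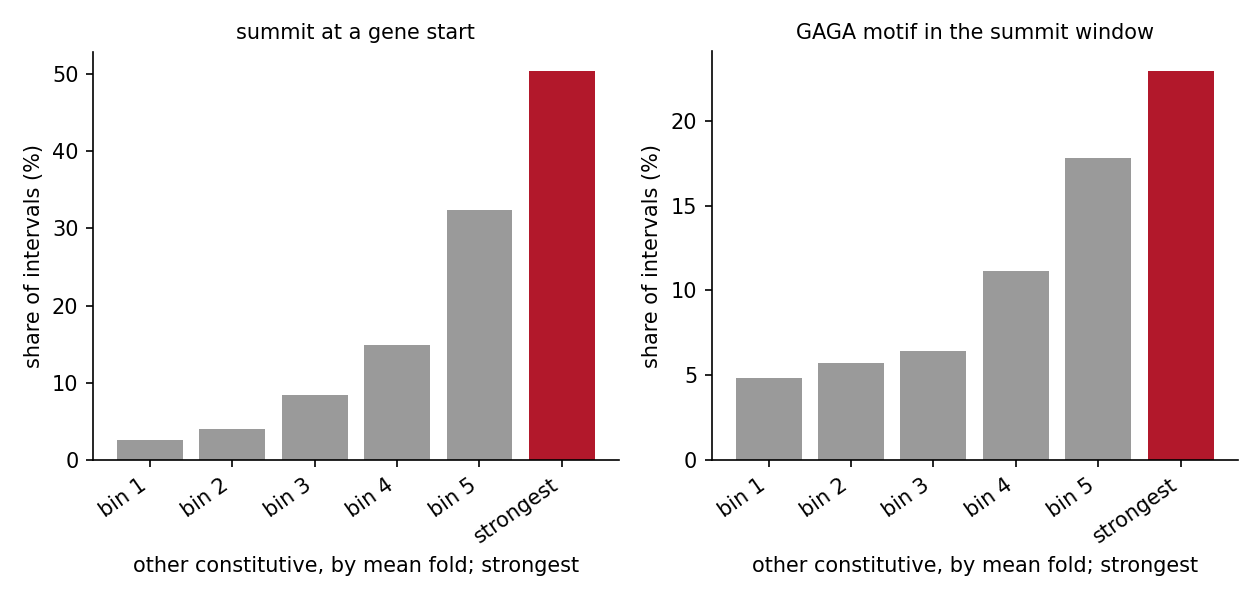
Share of intervals with the summit at a gene start (left) and with the GAGA motif in the window (right), for the other constitutive intervals in 5 bins of geometric mean fold and for the strongest. From the lowest bin to the strongest the shares go from 2.60 to 50.3% and from 4.82 to 22.9%.

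The Grainyhead motif, bound by the epithelial factor Grainyhead, was in 4.14% against 1.33%, and away from starts in 5.62% (20 of 356) against 1.27%. TATCGATA, bound by DREF at promoters of broadly used genes, was in 2.35% against 0.843%, but within gene starts in 4.09% against 5.12%. GGTCACAC, the core of the motif bound by M1BP, behaved likewise, with 2.35% against 1.16% in all and 4.36% against 5.57% at starts. CACACACA was in 17.0% against 12.6%. In the highest bin of the others by fold these shares were 3.12% for Grainyhead, 2.16% for DREF, 2.80% for M1BP and 16.2% for CACACACA, so the M1BP share was higher there than in the strongest intervals and the other shares were lower. Each of these motifs and of the remaining 9 of the 14 differed by less than 5 percentage points over all intervals. Among the 9, CAGCTG, an E-box, was in 22.0% against 17.6%. CGATA, the BEAF-32 core, was in 31.1% against 27.7%, but within gene starts in 37.3% against 40.7%. CATTCC, the Scalloped motif, was in 14.5% against 16.7%. GC content was 49.3% against 49.2%.

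Whether the strongest intervals differed between genotypes was asked by limma on quantile-normalized log2 fold enrichment over all 19441 constitutive intervals. None of the 729 was called at an adjusted p under 0.05 in limma, in any comparison; over all constitutive intervals 0.159% were called for Cdk1-i against control, 0.0309% for fzr against control and 0.0154% for fzr against Cdk1-i. At an unadjusted p under 0.05 limma gave 25, 18 and 9 of the 729 (3.43, 2.47 and 1.23%), against 10.6, 11.1 and 10.5% of all. The choice of intervals that are high in every library limits how far they can differ, so these counts are descriptions. The log2 difference lay within 0.5 in either direction for 716, 722 and 727 of the 729, with a median standard error of 0.18, and its medians were 0.03, 0.03 and -0.00125. These medians depended on the scaling: they were 0.10, 0.08 and -0.02 with median centring and 0.41, 0.09 and -0.32 with no scaling, where the medians of all intervals were 0.30, 0.00482 and -0.29.

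The lowest limma adjusted p was 0.149, at the start of CG42675, for Cdk1-i against control. Its unscaled fold enrichment was 12.1 and 11.02 in control, 26.5 and 26.6 in Cdk1-i, and 21.6 and 9.48 in fzr. Both Cdk1-i libraries were above every control library, and the fzr libraries fell on either side. After quantile normalization the log2 difference was 0.84 ± 0.19 (SE of the limma fit to all 6 libraries, n = 2 libraries each). Below, folds are likewise unscaled, whereas log2 differences with an SE are of normalized values and do not follow from the folds. At GstE12, a glutathione S-transferase gene, the fold was 14.5 and 14.6 in control, 31.9 and 29.9 in Cdk1-i, and 32.5 and 14.5 in fzr (log2 difference 0.71 ± 0.19, limma adjusted p = 0.252 for Cdk1-i against control). At drl, which encodes a Ryk receptor of Wnt5, the fold was 11.2 and 9.997, 22.4 and 19.9, and 23.5 and 10.9 (0.62 ± 0.18, limma adjusted p = 0.282). The abd-A start (0.70 ± 0.20) and a scaffold interval (-0.76 ± 0.22) completed the 5 lowest.

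For fzr against control the lowest limma adjusted p was 0.330, at an interval nearest to lncRNA:CR45506 (0.59 ± 0.19) and, after rounding, also at sgll (-0.74 ± 0.24), followed by drl, RpL3 and GstE12. At sgll the fold was 27.9 and 14.3 in control, 16.4 and 15.8 in Cdk1-i, and 16.7 and 9.84 in fzr, so that the control replicates differed more from each other than control replicate 2 did from Cdk1-i. For fzr against Cdk1-i the lowest limma adjusted p was 0.355, again at CG42675 (-0.61 ± 0.19), followed by r, the pyrimidine synthesis gene rudimentary, Marf1, Hydr2 and CG9427. The 2 comparisons with control share its libraries. None of these differences passed the limma threshold.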

How the data were processed

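ATAC-seq libraries of wing discs (3 genotypes, 2 libraries each, described as biological replicates) were aligned by the authors to dm6 with BWA-MEM inside nf-core/atacseq; blacklisted regions were dropped and MACS2 called peaks per library. The deposited lists give fold enrichment, a ratio to the local background, with -log10 p and -log10 q. Read counts were not used, so depth is unknown and intervals cover counting error of intervals only.

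Peaks overlapping by 1 bp were merged, and each interval took the highest peak of each list. Classes came from the median summit and the Ensembl annotation, motifs from the RefSeq dm6 sequence, in this order: within 250 bp of a transcript start, exon classes, intron, intergenic. limma 3.58.1 (trend, robust; R 4.3.3) was fitted to quantile-normalized log2 fold over all constitutive intervals with Benjamini-Hochberg adjustment, and checked on simulated data. Python 3.11.15 did the rest. Named intervals were the 10 strongest, 5 widest, 3 on each side of the limit, the longest run, the 5 lowest p per comparison, and up to 6 per gene list. Members and lists were chosen with earlier results of these data known. The result of 1 gene list is not reported here.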

Additional observations from a re-analysis of the deposited data

How the results depend on the processing

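Percentile 90 gave 1645 intervals and a stricter one gave 280, in place of 729. Leaving out each library gave 733 to 952. The excess at gene starts, 38.6 percentage points, was 37.96 to 40.3 with a library left out, 32.9 at percentile 90, 27.5 with -log10 p ranked, 20.4 with a window of 100 bp, 48.4 with 1000 bp and 47.8 with any overlap. The ratio of median widths, 1.16, was 1.16 to 1.19 with a library left out, 1.06 at the stricter percentile, 1.34 with -log10 p ranked and 1.27 with the mean length of the strongest peak. The ratio of median distances, 0.702, was 0.685 to 0.754 with a library left out and kept its direction in all 10 alternatives. The cause of these shifts was not tested.

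Among the alternatives that kept all 6 libraries, only the replicate block called a strongest interval. It called 3 for Cdk1-i against control (0.412%, against 1.42% of all intervals). It called 0 for fzr against control and for fzr against Cdk1-i, against 1.34% and 1.19% of all intervals. Fits with a library left out leave a group without a replicate, and their calls are not counted here. Deviations of same-numbered libraries correlated at 0.182, 0.386 and 0.078, all above 0. The main fit did not use the numbers as pairs, and whether they pair libraries was not tested. With the replicate block, limma called 276, 260 and 232 of all 19441 intervals at an adjusted p under 0.05. Without it the counts were 31, 6 and 3, so the low counts of the main fit depend on leaving the block out. With the names of the lists in place of the labels, and no block, the counts were 6, 31 and 3 in the same order of comparisons. None of the strongest intervals was called there. Without scaling, the median log2 difference for Cdk1-i against control was 0.30 over all intervals and 0.41 over the strongest. Unknown depth and 2 libraries in a group limit what can be detected, and fold enrichment depends on the local background.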

Other observations

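Some kinds of gene not described above also had strongest intervals at their starts. Transfer RNA genes had 11 of 290, small nucleolar RNA genes 5 of 269 and small nuclear RNA genes 2 of 32, against 404 of 18277 annotated genes (2.21%). Tandem copies of such genes can share an interval. On chromosome 4, 9 intervals were among the strongest, 8.04% of its constitutive intervals, against 3.50 to 4.03% on 2L, 2R, 3L, 3R and X.

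A further 391 intervals reached percentile 95 in 5 of the 6 lists. The list that fell short was fzr replicate 2 for 224 of them, control replicate 1 for 109, fzr replicate 1 for 29, control replicate 2 for 13, Cdk1-i replicate 1 for 12 and Cdk1-i replicate 2 for 4.

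A coding exon held the summit of 1 strongest interval, in pdm3, a POU domain gene, with fold enrichment of 14.4 and 10.7 in control, 14.0 and 12.6 in Cdk1-i, and 19.2 and 9.36 in fzr.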
